A study of Mus musculus with 10 samples.

Results

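This comparison sets 2 ATAC-seq libraries against each other, 1 in which vitamin C and 1 in which Gadd45a was added to the same reprogramming mixture, and follows the signal over all 21965 genes of the deposited table. They are 2 of the 10 libraries of the series and fill 4 of its 20 columns of signal. Both were made from mouse embryonic fibroblasts (MEFs) of E13.5 embryos, labelled as strain ICR and as carrying a transgene in which the Oct4 promoter drives GFP. In both conditions the cells were infected with pMXs retroviruses for Sox2, Klf4 and Oct4 L80A, an Oct4 mutant, a mixture called SKO-L80A here. In SKO-L80A+Vc the mESC medium held vitamin C at 50 µg/ml and no further factor was given. In SKO-L80A+Ga the medium was plain mESC medium and a virus for Gadd45a was added to the other 3. The comparison therefore exchanges a medium supplement for a retrovirus. SKO-L80A in plain medium is used here for reference. Other libraries of the series, also from E13.5, are used below and named by their labels. They are the Flag control, Sox2, Klf4, Oct4 and Oct4-L80A given alone, and SKO, which is Sox2, Klf4 and Oct4 together. SKO+shBrg1 is SKO with a hairpin against Brg1. About 50000 living cells entered each library, and the cells were measured in bulk, so more open chromatin per cell and more cells with open chromatin cannot be told apart.

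Vitamin C (ascorbate) keeps iron in its reduced state for the 2-oxoglutarate dioxygenases, among them the Tet enzymes that oxidise 5-methylcytosine, the JmjC enzymes that remove methyl groups from histones, and the prolyl and lysyl hydroxylases of collagen. It is known to raise the yield of reprogramming of mouse fibroblasts. Gadd45a is a small stress-response protein induced by p53 that binds other proteins and has been linked to DNA demethylation through base excision repair and to the p38 and JNK kinases. ATAC-seq reads open chromatin through the sites at which a transposase can insert adapters.

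The deposited values are a signal per gene, with no read counts, and the sources used here give neither the window around each gene nor the scaling between columns. Sgce and Peg10, imprinted genes that lie side by side on chromosome 6, had nearly identical values. With vitamin C both had 8.33 and 8.49, and in the first SKO column they had 12.98 and 12.91. Each condition has 1 library and 2 columns, labelled 1 and 2, whose relation is not given. The columns were treated as repeat measurements of 1 sample, so differences are described by their size, without a replicate error or a test. Each difference is given for both column pairs (column 1 with column 1, column 2 with column 2). Column sums were 210990 and 196742 with vitamin C and 256029 and 231782 with Gadd45a, and the depth in reads is unknown. The signal of the median gene was lower with vitamin C, at -0.22 in pair 1 and -0.20 in pair 2 on the log2 scale. All differences below are vitamin C minus Gadd45a on the scale of log2(signal + 0.138), relative to that median, and averaged over both pairs unless both are given.

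The labels were checked first. Gadd45a (ENSMUSG00000036390, chromosome 6, 67035096 to 67037407) had a signal of 30.3 and 31.9 with vitamin C, 36.6 and 41.5 with the Gadd45a virus and 37.3 and 52.1 in SKO-L80A. As signal, the library that received the virus was thus above the vitamin C library and below SKO-L80A. Relative to all genes it was above both, with -0.11 for vitamin C minus Gadd45a and 0.08 for Gadd45a minus SKO-L80A. These differences are small, and accessibility of the gene is no measure of its product. The genes of the shared viruses were close: Sox2 had 21.998 and 22.5 against 28.6 and 27.97, a difference of -0.13, Klf4 had 39.9 and 39.7 against 45.7 and 45.1 (0.02), and Pou5f1, which encodes Oct4, had 8.59 and 10.4 against 10.98 and 14.1 (-0.17). In SKO-L80A the same genes had 38.5 and 51.8, 62.6 and 83.5 and 15.4 and 27.5, above both conditions in each column. Reads over these genes can come from virus inserts as well as from the genome.

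Part of the fibroblast markers had signal in both libraries. Of 11 such markers, 5 reached the minimum signal with vitamin C, 6 with Gadd45a, 8 in SKO-L80A and 6 in Flag. The minimum of 6.92 is the middle value of the whole table. Of all 21965 genes, 11658 reached it by the higher condition mean, so the shares with vitamin C and Gadd45a are near that of all genes. The summed signal of the 11 fibroblast markers was 87.4 and 78.9 with vitamin C and 109 and 92.8 with Gadd45a. It was lower with vitamin C in the same way as the column sums. Among 7 markers of pluripotent cells only Pou5f1 and Sox2, both supplied by virus, reached the minimum, and Nanog, a core pluripotency factor, had 0.335 and 0.395 against 0.433 and 0.236. In both conditions 2 of 6 simple epithelial, 1 of 5 keratinocyte, 1 of 5 macrophage and blood, 0 of 4 endothelial and 1 of 4 muscle markers reached it, with no marker past the rules below. The part of other cell types in the results was not tested.

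Few genes separated vitamin C from Gadd45a. Of 11658 genes in which the higher of the condition means reached the minimum signal, 0 were at least 2-fold higher with vitamin C (0.0%) and 2 were at least 2-fold lower (0.0172%), with the same sign in both pairs: Zfp106 and Prom2. At a smaller size, at least 1.5-fold in each column pair taken alone, 11 genes were higher (0.0944%) and 16 lower (0.137%). The sign was the same in both pairs, at any size, for 6989 genes. It was positive for 2222 (19.1%) and negative for 4767 (40.9%), and the median of the tested genes was itself at -0.05. Their differences had a 5th percentile of -0.31 and a 95th of 0.19.

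The columns of a condition differed more than the conditions did. Among the 11658 genes the difference between columns 1 and 2 had an SD of 0.290 within vitamin C and 0.255 within Gadd45a, and the difference between conditions one of 0.199 in pair 1 and 0.187 in pair 2. The column differences of both conditions went together across genes (Pearson r 0.664, Spearman coefficient 0.605, 11658 genes of the same 4 columns). The differences of the pairs by number had an r of 0.316 with each other. With the columns crossed r was -0.434, and 2 higher and 10 lower genes passed the 1.5-fold rule. These held 2 of the 11 higher genes and 9 of the 16 lower ones. All 27 genes had columns that did not overlap between conditions once each was taken relative to its own median. Among the tested genes this held for 12.9% in the higher and 12.3% in the lower direction. The 27 were picked for their size in these same 4 columns, so their lack of overlap is no separate support.

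**Figure D1:**
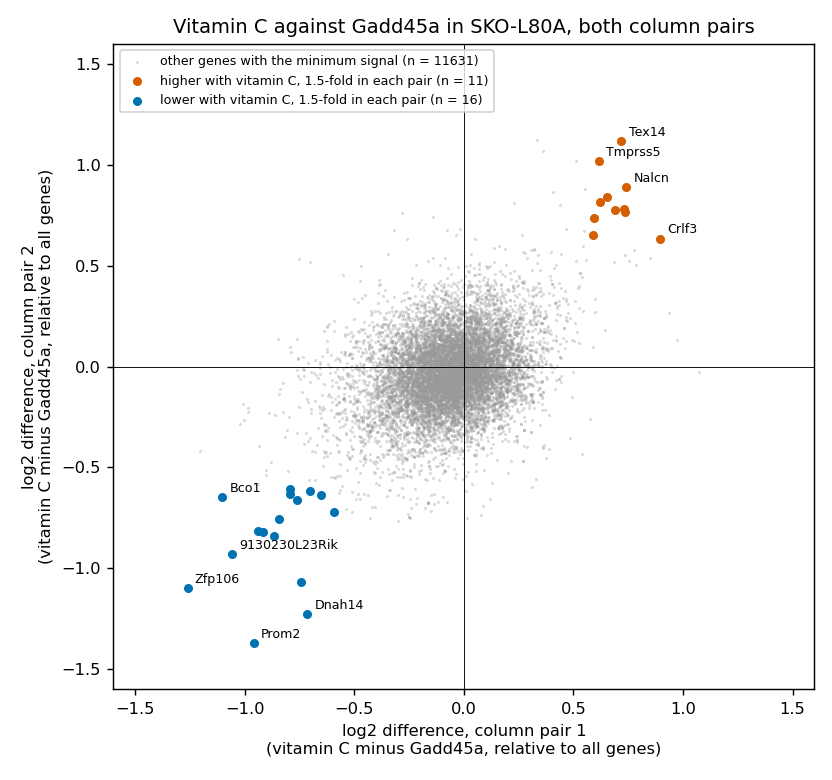
Log2 difference between vitamin C and Gadd45a in column pair 1 (x axis) and pair 2 (y axis), relative to all genes, for the 11658 genes with the minimum signal. Orange points are the 11 genes at least 1.5-fold higher and blue points the 16 at least 1.5-fold lower in each pair. The cloud is centred near 0, and Zfp106 and Prom2 lie farthest out, on the lower side.

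Zfp106 (ENSMUSG00000027288, chromosome 2, 120506820 to 120563864), which encodes a zinc finger protein that binds RNA and is needed by motor neurons and muscle, had a signal of 5.72 and 4.32 with vitamin C and 16.3 and 10.8 with Gadd45a. Its difference was -1.26 and -1.10 in the pairs, or 2.27-fold lower. SKO-L80A had 12.9 and 11.96, so the vitamin C columns were the low ones. Prom2 (ENSMUSG00000027376, chromosome 2, 127526953 to 127541417) encodes prominin 2, a membrane protein of epithelial cell protrusions. It had 4.35 and 2.98 with vitamin C and 10.1 and 9.15 with Gadd45a, and was 2.24-fold lower. The signal was 8.63 and 11.3 in SKO-L80A and 2.90 and 3.80 in the Flag control.

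The next 8 genes in size on the lower side were all under 2-fold. The uncharacterised gene 9130230L23Rik (ENSMUSG00000054598) had 5.18 and 3.17 against 12.8 and 7.10, a difference of -0.99. Dnah14, a dynein heavy chain of cilia, had 4.32 and 2.86 against 8.40 and 7.93 (-0.97). Vwc2l, a secreted protein with von Willebrand factor C domains, had 3.05 and 3.62 against 6.11 and 8.92 (-0.91). In each of these genes both vitamin C columns were below both Gadd45a columns. Zc4h2, an X-linked zinc finger gene of neural development, had 3.39 and 4.12 against 7.78 and 8.48 (-0.88). Bco1, the enzyme that splits beta-carotene into retinal, had 3.62 and 3.54 against 9.30 and 6.50 (-0.88). Fgd3 had 3.22 and 3.40 against 7.27 and 7.06 (-0.87). Baalc (-0.85), a cytoplasmic protein of brain and leukaemia cells, and 1700122O11Rik (-0.81) completed this group, but the latter was at -1.21 and -0.42 in the pairs and missed the 1.5-fold rule in pair 2.

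The remaining lower genes past the 1.5-fold rule had a wide range of functions. Parp16, an ADP-ribosyltransferase of the endoplasmic reticulum, had the highest signal of them, at 18.9 and 16.3 against 37.6 and 29.7 (-0.71). Mapkapk3, a kinase activated by p38, had 10.9 and 10.5 against 22.2 and 18.5 (-0.70). Ctu1, which takes part in thiolation of transfer RNA, had 10.5 and 11.3 against 20.2 and 20.03 (-0.66). Relative to all genes, these 3 genes were at 0.16, 0.26 and 0.04 with Gadd45a and at -0.54, -0.43 and -0.60 with vitamin C against SKO-L80A. Diras1, a small GTPase of the Ras family (-0.71), Sphkap, an anchor of protein kinase A (-0.80), Adgrb1, an adhesion receptor of phagocytosis (-0.65), and Zfp316 (-0.66) made up the rest.

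On the higher side Tex14 (ENSMUSG00000010342, chromosome 11, 87405013 to 87555823), a protein of the bridges between germ cells, came first. It had 22.6 and 19.04 with vitamin C and 15.98 and 10.02 with Gadd45a, a difference of 0.72 and 1.12 in the pairs, or 1.89-fold. Flag had 9.58 and 11.8 and SKO-L80A 16.4 and 15.9, so as signal both vitamin C columns were the highest of these. Tmprss5 (ENSMUSG00000032268), a membrane serine protease of the nervous system, had 15.2 and 14.8 against 11.5 and 8.36 (0.82), and Nalcn (ENSMUSG00000000197), the sodium leak channel of neurons, 6.65 and 7.97 against 4.6 and 4.90 (0.82). For Nalcn the second column of SKO-L80A (4.82 and 8.54) exceeded both vitamin C columns as signal. Mbp, the myelin basic protein gene, had 8.26 and 8.23 against 6.74 and 4.61 (0.51 and 1.02 in the pairs), so pair 1 was under 1.5-fold.

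Crlf3, a cytokine receptor-like factor, had 21.99 and 16.1 against 13.7 and 11.9 (0.77). Manba, the lysosomal beta-mannosidase, had 15.5 and 10.7 against 10.8 and 7.08 (0.76), so its second vitamin C column lay below its first Gadd45a column as signal, though not relative to the column medians. Ptcd3, a protein of mitochondrial translation, had 15.9 and 12.2 against 11.8 and 7.77 (0.75), and 1190005I06Rik 11.02 and 11.2 against 7.69 and 7.52 (0.75). The predicted gene Gm10800 had 21.8 and 31.2 against 15.8 and 20.9 (0.73), and 25.6 and 27.7 in Flag. BC067074 (0.33 and 1.12 in the pairs) was past 1.5-fold in pair 2 only. The other 3 genes past the 1.5-fold rule were Esyt3, a tether between endoplasmic reticulum and plasma membrane (0.72), E2f2, a cell cycle transcription factor (0.66), and Adh7, a dehydrogenase that oxidises retinol (0.62).

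**Figure D2:**
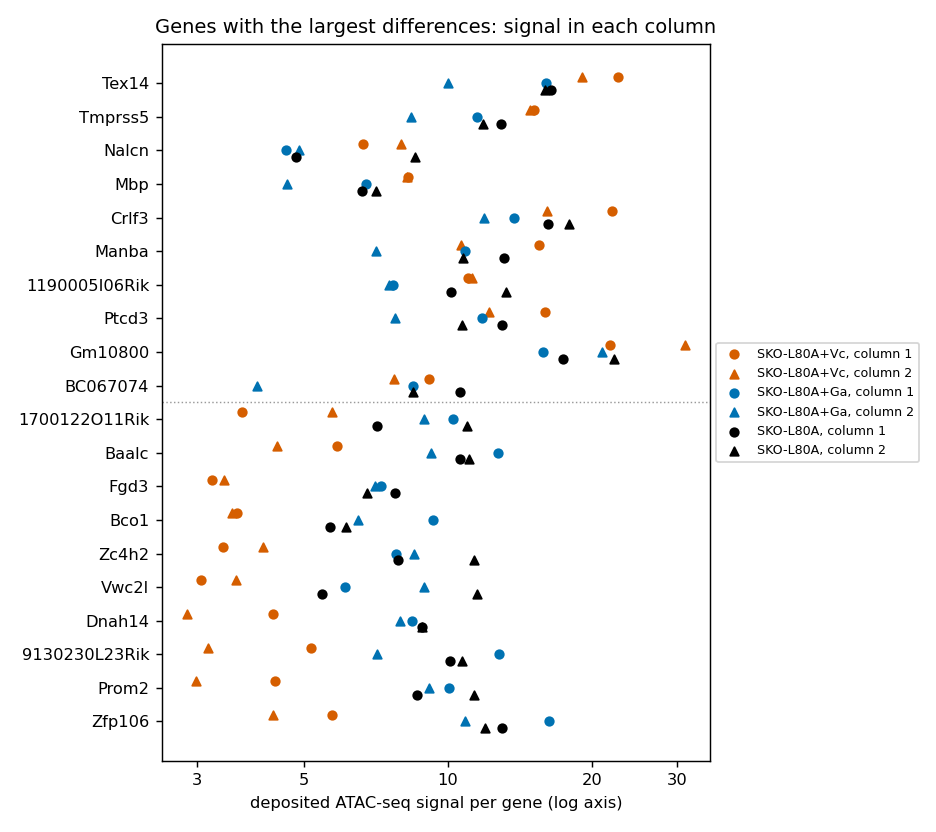
Deposited signal (x axis, log scale) of the 10 genes with the largest difference in each direction, above the dotted line for higher and below it for lower with vitamin C. Orange, blue and black stand for SKO-L80A+Vc, SKO-L80A+Ga and SKO-L80A, circles for column 1 and triangles for column 2. In the lower genes both vitamin C columns lie left of the other 4, as for Zfp106 at 5.72 and 4.32.

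The libraries with the addition were each set beside SKO-L80A, which both comparisons share. Over the 16 lower genes the median difference from SKO-L80A was -0.67 with vitamin C and 0.16 with Gadd45a, and over the 11 higher genes 0.66 and -0.10. These genes were chosen from the vitamin C and Gadd45a values, so the medians are a description. Prom2 was at -0.94 with vitamin C and 0.21 with Gadd45a, and Zfp106 at -0.82 and 0.35. Tex14 was at 0.84 and -0.10. Bco1 was an exception, at -0.21 with vitamin C and 0.65 with Gadd45a, so that there the Gadd45a library was farther from SKO-L80A.

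**Figure D3:**
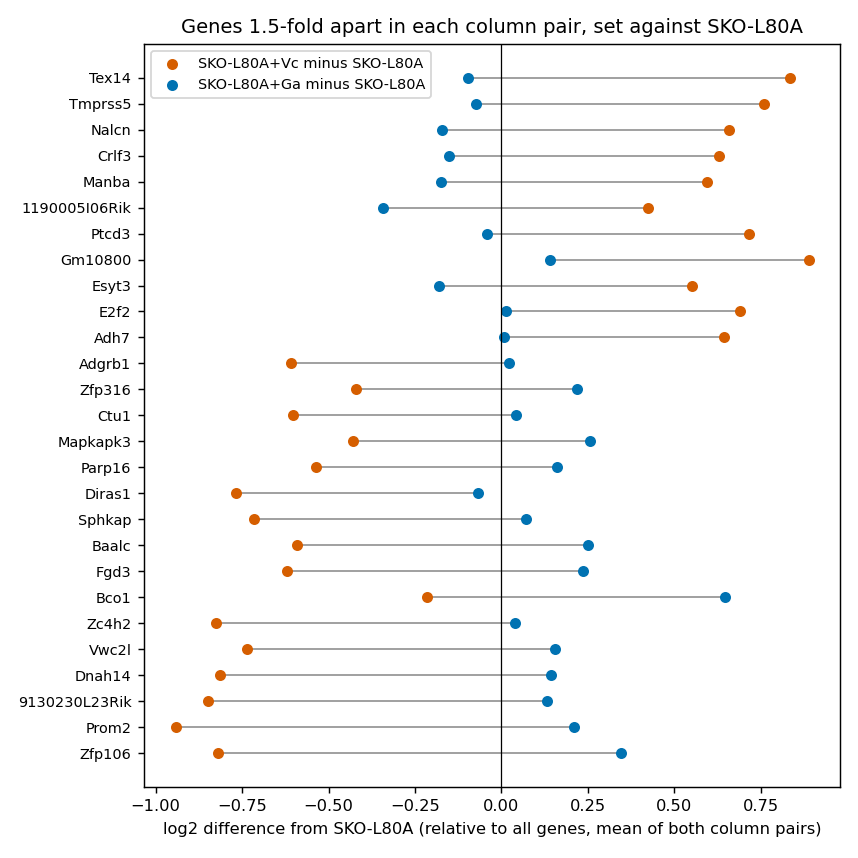
Log2 difference from SKO-L80A, relative to all genes (x axis), for the 27 genes at least 1.5-fold apart in each column pair. Orange points are SKO-L80A+Vc, blue points SKO-L80A+Ga, and a line joins the points of a gene. In every gene but Bco1 (-0.21 and 0.65) the blue point is nearer to 0 than the orange one. The share of all tested genes with this order was not counted, so it describes the chosen genes only.

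The promoters of the most different genes are shown because both additions have been linked to removal of methyl groups from CpG sites. Of the 27 genes, 21 had exactly 1 promoter window in the RefSeq table for GRCm38.p6, the assembly of build mm10, which runs from 250 bases before to 50 bases after the start. The windows of the pair past 2-fold on the lower side and of the first and the third gene on the higher side (Tmprss5 has 2 windows) are printed 5′ to 3′ on the gene's strand, with each CpG in capitals. They lie at chr2:120563810-120564109 (minus strand), chr2:127541368-127541667 (minus), chr11:87404815-87405114 (plus) and chr14:123627095-123627394 (minus).
Zfp106: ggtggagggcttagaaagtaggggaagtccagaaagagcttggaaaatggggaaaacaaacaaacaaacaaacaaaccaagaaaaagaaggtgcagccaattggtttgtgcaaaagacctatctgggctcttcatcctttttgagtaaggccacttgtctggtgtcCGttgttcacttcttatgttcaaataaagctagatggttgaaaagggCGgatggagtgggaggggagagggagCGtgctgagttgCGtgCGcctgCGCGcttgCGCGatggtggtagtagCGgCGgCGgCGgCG
Prom2: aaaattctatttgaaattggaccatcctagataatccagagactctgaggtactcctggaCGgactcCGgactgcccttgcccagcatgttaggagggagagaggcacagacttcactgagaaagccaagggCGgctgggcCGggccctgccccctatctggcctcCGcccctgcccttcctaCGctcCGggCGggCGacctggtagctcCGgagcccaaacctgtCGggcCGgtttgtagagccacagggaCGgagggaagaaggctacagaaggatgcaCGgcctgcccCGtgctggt
Tex14: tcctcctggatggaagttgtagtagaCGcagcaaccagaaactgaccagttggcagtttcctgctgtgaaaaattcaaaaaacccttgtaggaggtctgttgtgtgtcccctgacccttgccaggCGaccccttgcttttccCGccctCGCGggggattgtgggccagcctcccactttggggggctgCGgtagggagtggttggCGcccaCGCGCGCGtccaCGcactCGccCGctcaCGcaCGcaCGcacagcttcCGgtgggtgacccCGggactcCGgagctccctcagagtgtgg
Nalcn: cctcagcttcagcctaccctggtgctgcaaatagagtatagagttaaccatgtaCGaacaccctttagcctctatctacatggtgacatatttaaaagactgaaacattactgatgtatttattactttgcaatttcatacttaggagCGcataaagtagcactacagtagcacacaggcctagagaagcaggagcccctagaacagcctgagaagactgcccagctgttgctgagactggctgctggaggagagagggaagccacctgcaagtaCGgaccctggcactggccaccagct
These windows held 14, 15, 20 and 3 CpG sites. In Zfp106 and Tex14 most of them lie toward the 3′ end of the window, near the start of the gene, while in Prom2 they are spread out.

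Lower genes had fewer promoter CpG sites than most genes. Their median was 9 sites (13 genes, 5 to 30), against 20.5 in the higher genes (8 genes, 3 to 35) and 22 in the 7196 genes with the minimum signal and 1 window. Of the 13 lower genes, 10 had 6 to 15 sites, and Diras1 (30) and Zfp316 (25) had more. Across all genes with 6 to 15 sites the median difference was -0.08 (1448 genes), and with 16 or more it was -0.04 (5349 genes), so a shift of that kind was small. Signal differed too, with a median of 13.4 in the former and 16.5 in the latter. The 16 lower genes had median signals of 5.4 and 4.22 with vitamin C and 10.9 and 9.18 with Gadd45a. Most of them reached the minimum signal with Gadd45a only. The groups compared were not matched for signal, so the part of signal in the lower CpG count was not tested.

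Motifs were searched on both strands of the same windows. The AP-1 motif TGANTCA was in 1 of 8 higher genes (Adh7) and 1 of 13 lower genes (Parp16), against 3.99% of tested genes and 7.81% of all 32851 windows. The Klf motif GGGNGTGG was in 2 higher genes (Tex14, Crlf3) and 2 lower ones (9130230L23Rik, Diras1), against 23.9% and 17.6%. The octamer ATGCAAAT was in 0 higher and 2 lower genes (Vwc2l, Fgd3), against 1.39% and 1.74%, and the Sox motif CATTGT in 0 higher and 2 lower genes (Zfp316, Parp16), against 6.57% and 12.6%. No motif's letters contain another's, and these are matches of letters in few genes.

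The 22 gene lists, chosen by known function, had 0 members past the 1.5-fold rule in either direction, which is near the background of 0.0944% of tested genes higher and 0.137% lower. Their medians are set beside -0.05 for all tested genes, of which 19.1% were higher and 40.9% lower in both pairs. Without centring on all genes every list median was negative, including the 3 that are positive here (epithelial at -0.11, AP-1 and TEAD at -0.19, p53 at -0.20). With quantile normalisation, 7 lists with medians between -0.05 and -0.02 came out between 0.00 and 0.05.

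The enzymes that use vitamin C hardly differed in accessibility. Of 30 Tet and JmjC dioxygenases and their relatives, 26 had the minimum signal, 4 were higher and 11 lower in both pairs, and the median was -0.09, but -0.14 in pair 1 and -0.01 in pair 2. Tet1 had 11.6 and 12.8 against 12.8 and 12.9 (0.14), Tet2 10.3 and 13.7 against 12.6 and 15.9 (-0.03) and Tet3 18.2 and 21.9 against 25.99 and 24.6, with -0.28 and 0.04 in the pairs. Among histone demethylases, Kdm6b, which acts on H3K27, was at 0.16, Kdm2b at 0.04, the H3K9 enzymes Kdm3a and Kdm4b at -0.06 and -0.11, and Kdm5a, which acts on H3K4, at -0.24. The 15 hydroxylases of collagen and of hypoxia-inducible factors had a median of -0.02, with 2 higher and 8 lower. Plod2, a lysyl hydroxylase, was at 0.23, and the prolyl hydroxylase genes P4ha2 and P3h3 at -0.30 and -0.36. P3h3 had 7.74 and 8.50 against 12.4 and 11.98, without overlap of the columns.

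Genes of vitamin C transport and redox defence had a median of -0.04 (18 of 22 with the minimum signal, 5 higher, 8 lower). Slc7a11, the cystine importer, was at -0.33 and Hmox1, haem oxygenase 1, at -0.26, while Gpx1, a glutathione peroxidase, was at 0.16. The 21 hypoxia response genes with the minimum signal had a median of -0.05, with 2 higher and 8 lower. Besides Lox, Vegfa, the endothelial growth factor, was at -0.28.

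On the Gadd45a side, the Gadd45 family and base excision repair list had a median of -0.04 (25 of 28 genes, 6 higher, 9 lower). Tdg, the glycosylase that removes oxidised methylcytosine, had 13.51 and 12.6 against 19.96 and 16.1 (-0.24). Smug1, a uracil glycosylase, was at -0.28, and Neil3, a glycosylase for oxidised bases, at 0.31, higher in both pairs by 0.31 and 0.32. The p38 and JNK list had a median of -0.08 (16 of 18 genes, 2 higher, 8 lower). Mapk8, which encodes JNK1, was at -0.28 and Map3k7, an upstream kinase, at -0.26. The p53, cell cycle and arrest genes had a median of 0.01 (22 of 23, 4 higher, 7 lower), with Plk3, a stress-induced kinase, at 0.25 and Cdk1, the mitotic kinase, at -0.19.

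Among other regulators of chromatin, the DNA methylation list had a median of -0.02 (13 of 15, 4 higher, 3 lower). Its members spread widely, from Zbtb33 (-0.48), which encodes the methyl-CpG reader Kaiso, to Zbtb38, a related reader (0.34). Zbtb33 had 7.19 and 7.09 against 12.1 and 11.2, with 11.0 and 14.4 in SKO-L80A and 5.96 and 9.96 in Flag. As signal, both vitamin C columns were thus below those of Gadd45a and SKO-L80A, but between those of Flag. The H3K9 methylation and HP1 list had -0.06 (14 of 18, 3 higher, 6 lower), but -0.12 in pair 1 and 0.04 in pair 2, with Atf7ip, a partner of the methyltransferase Setdb1, at -0.35 and Cbx3, an HP1 protein, at 0.17. The Brg1 complex list had -0.05 (24 of 26), with 2 members higher and 12 lower. Smarcd1 and Arid2, subunits of these complexes, were at -0.27 and -0.25 and Smarcd2 at 0.17. Smarca4, which encodes Brg1, was at 0.14, but 0.288 in pair 1 and -0.004 in pair 2.

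Epithelial genes had the highest list median. The epithelial and MET (mesenchymal-to-epithelial transition) list was at 0.10, with 12 of 35 genes at the minimum signal, 6 higher and 4 lower. Krt8, a keratin of simple epithelia, had 8.97 and 7.06 against 6.04 and 5.71, at 0.78 and 0.50 in the pairs, so pair 2 was under 1.5-fold. The claudins of tight junctions divided: Cldn3 had 9.31 and 7.52 against 8.58 and 6.48 (0.38), but Cldn6 4.98 and 4.42 against 8.26 and 8.13 (-0.57) and Cldn1 was at -0.25. Pkp1, a plakophilin of desmosomes, was at 0.28, and Grhl1, an epithelial transcription factor, at -0.12. Cdh1, the epithelial cadherin, and Epcam, an epithelial adhesion molecule, were below the minimum, at 1.72 and 2.51 against 2.30 and 2.70 and at 2.35 and 2.56 against 1.52 and 1.95. The stratified epithelium list, with 8 of 35 genes at the minimum, was at -0.07 (1 higher, 5 lower). Perp, a desmosomal target of p53, was at 0.35. Krt10, a keratin of differentiated epidermis, was at -0.40, but -0.75 in pair 1 and -0.06 in pair 2.

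Fibroblast genes had a median of -0.06 (32 of 50 at the minimum, 8 higher, 12 lower). Lox, the oxidase that cross-links collagen, had 9.40 and 9.46 against 19.3 and 15.7 (-0.80 and -0.52 in the pairs), and 17.5 and 21.2 in SKO-L80A, so both vitamin C columns were the low ones. Postn, a matricellular protein, was at -0.42 and Tgfb1 at -0.31. Meox2 (0.33), a mesenchymal homeobox factor, Thbs1 (0.28), a thrombospondin, and Twist1 (0.25), a mesenchymal helix-loop-helix factor, were on the other side. Col1a1, the main fibrillar collagen, had 18.1 and 14.5 against 21.9 and 15.8 (0.01), and Thy1, a surface marker, 4.73 and 4.95 against 6.86 and 5.69, under the minimum. The AP-1 and TEAD list, factors that hold open much of the fibroblast's chromatin, had a median of 0.03, with 7 of 18 members higher and 1 lower. Tead4 was the highest at 0.24, and Fosl1 the member lower in both pairs at -0.15.

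The pluripotency network had 11 of 40 genes at the minimum, a median of -0.10, 2 higher and 6 lower. Its members spanned only -0.17 (Pou5f1) to 0.03 (Mycn), the narrowest range among lists with more than 10 such genes. Zscan10, a zinc finger partner of Oct4 and Sox2, had 15.2 and 17.5 against 20.5 and 21.9 (-0.16).

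Interferon response genes had a median of -0.12 (12 of 24, 2 higher, 6 lower), but -0.10 in pair 1 and -0.04 in pair 2, with Isg15, a ubiquitin-like effector, at 16.6 and 16.7 against 26.6 and 26.2 (-0.45) and the chemokine gene Ccl2 at -0.27. Imprinted genes also had -0.12 (14 of 33, 3 higher, 7 lower), but -0.04 in pair 1 and -0.05 in pair 2. Ascl2, a placental factor, was at -0.46 and Grb10, a growth inhibitor, at -0.33. The neural list had -0.03 (11 of 24, 3 higher, 6 lower) and a wide spread: Gfap of astrocytes had 4.6 and 5.13 against 9.56 and 7.39 (-0.56) and Pax6, an eye and forebrain factor, 4.97 and 6.67 against 9.49 and 10.3 (-0.56), while Map2, a neuronal microtubule protein, was at 0.29. For scale, the 30 housekeeping genes had a median of -0.07 and ranged from -0.20 (Sdha) to 0.38 (Chmp2a), with 6 higher and 12 lower. The lists for blood and endothelial cells (4 of 24 at the minimum), muscle (3 of 17) and germline and 2-cell-like genes (2 of 21) had medians of -0.05 (0 higher, 1 lower), -0.02 (1 and 1) and -0.21 (0 and 1).

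**Figure D4:**
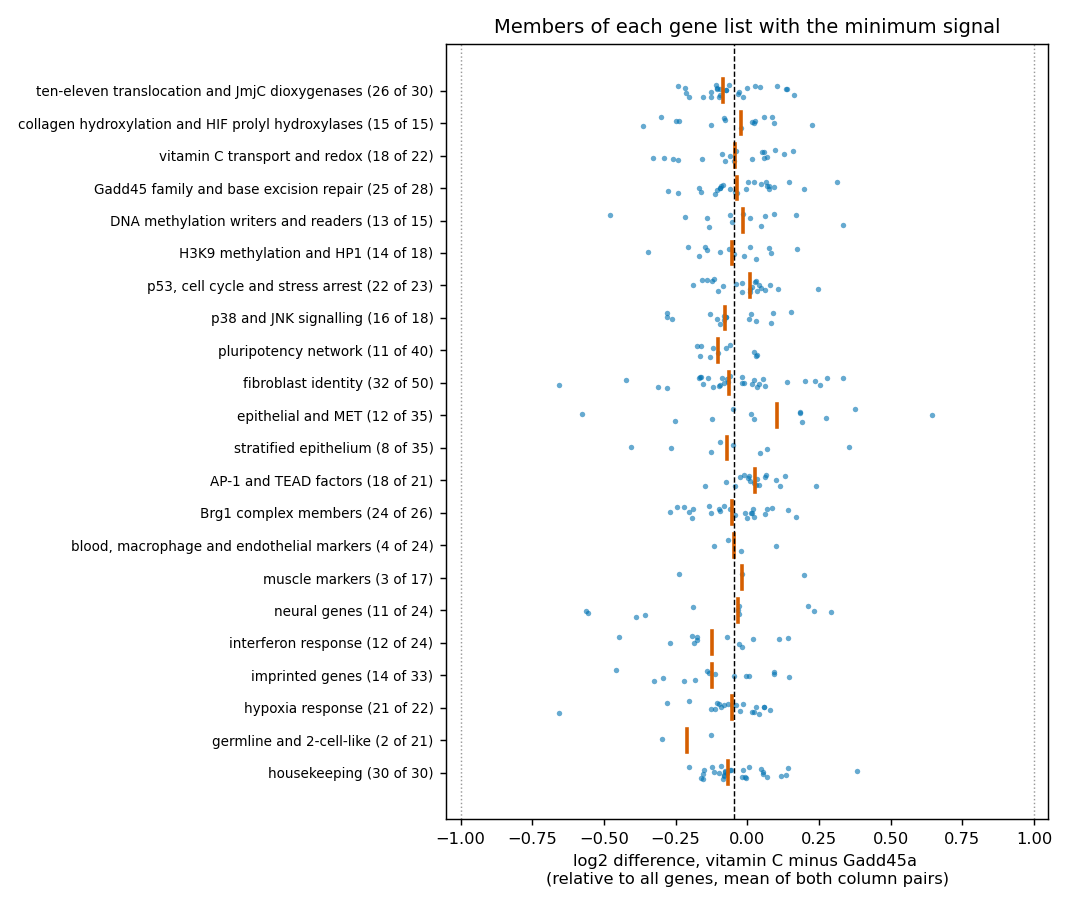
Log2 difference between vitamin C and Gadd45a, relative to all genes (x axis), of every list member with the minimum signal (blue points), with the number of such members of the number listed. Orange bars are list medians, the dashed line is the median of all tested genes (-0.05) and dotted lines mark 2-fold. All list members lie within 2-fold, and the list medians lie between -0.21 and 0.10.

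Genes that respond to the factors were taken from libraries outside the comparison, by the same 2-fold rule relative to all genes. The sets against Flag share the Flag library, so they are not independent of each other. SKO against Flag gave 274 higher genes (2.2% of those tested there), of which 213 had the minimum signal here. Of these, 95 (44.6%) were higher and 75 (35.2%) lower with vitamin C in both pairs, against 19.1% and 40.9% of all tested genes, and the median was 0.03. The median was 0.00 in pair 1 and 0.07 in pair 2. At both ends were genes past the 1.5-fold rule: Adh7, 1190005I06Rik, Tmprss5 and Esyt3 were higher and 9130230L23Rik lower. Tmprss5 had a signal of 15.5 and 11.1 in SKO and 2.44 and 3.50 in Flag.

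The 157 genes higher in Klf4 than in Flag (1.43%) had 31 of 122 (25.4%) higher and 63 (51.6%) lower, both above the shares of all tested genes (19.1% and 40.9%), and a median of -0.10 beside -0.05. They include Prom2, 9130230L23Rik and Diras1 among the lower and 1190005I06Rik and Esyt3 among the higher genes. The 14 genes higher in Sox2 (0.131%) had a median of 0.04, but -0.10 in pair 1 and 0.14 in pair 2. The library labelled Oct4 gave 41 higher genes (0.363%), of which 36 had a median of -0.01 (12 higher, 15 lower). Setting Oct4-L80A against it gave 44 lower genes (0.392%), of which 39 had a median of 0.03, with 15 higher and 18 lower, and 2 higher genes (0.0178%), of which 0 had the minimum signal. The knockdown of Brg1 in SKO against SKO gave 1 higher gene (0.00781%), at 0.02 here, and 0 lower genes (0.0%).

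In every set of genes lower than in Flag, the share lower with vitamin C in both pairs was above the 40.9% of all tested genes. It was 83.3% for Sox2, 87.5% for the library labelled Oct4, and 50.0% for both Klf4 and SKO, in small sets. Of 23 genes lower in Sox2 (0.215%), 12 had the minimum signal here, 10 of them were lower and 1 higher in both pairs, and the median was -0.30. They include Bco1, Lox, the matrix fibulin Fbln2, and the overlapping genes Mfrp and C1qtnf5. The library labelled Oct4 gave 15 lower genes (0.133%), of which 7 of 8 were lower, with a median of -0.28. All of these 8 but Opn1sw, Bco1 and Lox among them, are also in the Sox2 set. The Oct4 set thus adds little to the Sox2 set. Klf4 gave 35 (0.318%), of which 24 had a median of -0.07 (7 higher, 12 lower, or 29.2% and 50.0%), and SKO 19 (0.152%), of which 6 had a median of -0.38 (1 higher, 3 lower), among them Gm10800 on the higher and Bco1 and Fgd3 on the lower side.

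**Figure D5:**
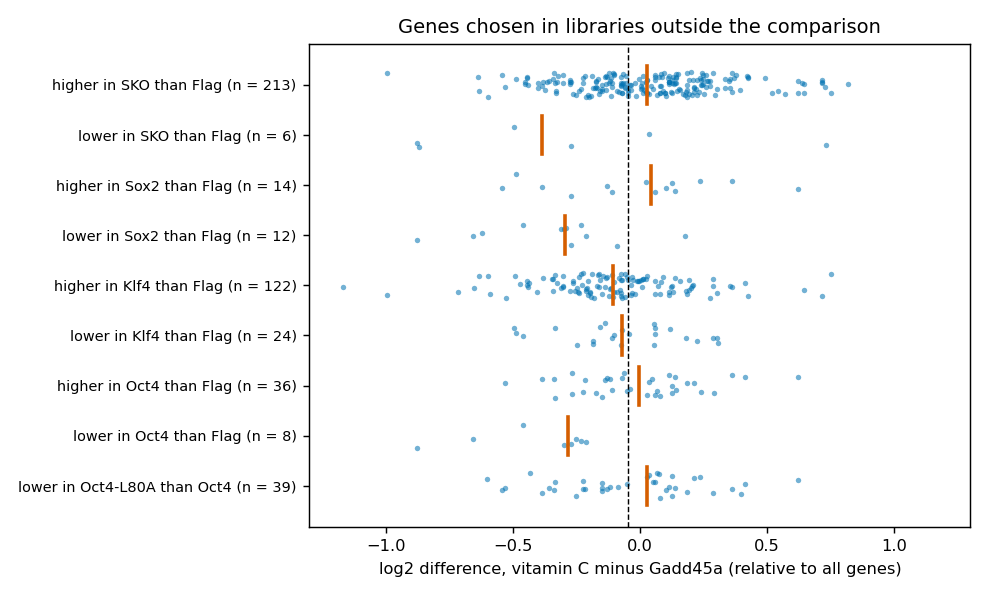
Log2 difference between vitamin C and Gadd45a, relative to all genes (x axis), for genes chosen in other libraries by a 2-fold difference (y axis, with the number that had the minimum signal). Blue points are genes, orange bars medians, and the dashed line is the median of all tested genes (-0.05). The median is 0.03 for genes higher in SKO, -0.10 for genes higher in Klf4 and -0.30 for genes lower in Sox2.

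The difference also depended on the signal itself. In the 3 lowest of 10 equal groups of genes by mean signal, the medians were 0.19, 0.22 and 0.15, and in the 7 upper groups they lay between -0.02 and -0.06. In the lowest group the median signal of 0.0361 was under the pseudocount of 0.138, which holds the difference near 0 before centring, so that the value above 0 there follows from the centring. In the second lowest group pair 1 was at 0.38 and pair 2 at 0.07. None of the 27 genes lay in the 4 lowest groups, but a call required the minimum signal of 6.92. The fourth group had a median signal of 2.69, so this absence follows largely from that rule. The spread narrowed with signal, from an SD of 0.25 in the fifth group to 0.10 in the top group, and 9 of the 27 genes lay in the fifth group. By chromosome, the medians of tested genes ran from -0.07 (chromosome 7) to -0.03 (chromosome 12), and by gene length from -0.06 in the shortest of 4 equal groups to -0.04 in the longest. The 16 lower genes lie on 10 chromosomes and 10 of the 11 higher genes on 7; Gm10800 had no RefSeq match.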

How the data were processed

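The values are a signal per gene in a table deposited by the authors, with 2 columns per condition. Per the submitters' processing notes the build is mm10 and the tools include Bowtie2 2.2.5, MACS2 2.1.0, SAMtools 1.3.1, bedtools 2.25.0, cutadapt 1.13, Trimmomatic 0.35, deepTools, DESeq2 1.22.2 and Picard. The sources used here do not give the step each served, the window or the scaling.

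Here log2(signal + 0.138) was taken, the pseudocount being the 10th percentile of values above 0. Differences were taken per column pair, less the median of all 21965 genes. A gene was tested when the higher condition mean reached 6.92, the median of all values. Genes named are the 10 largest in each direction with the same sign in both pairs, up to 3 members per list and direction, all 27 past 1.5-fold, and a fixed group of 16. Not all list members are reported. Of the symbols, 20788 matched RefSeq. The members, 22 lists and rules were chosen with earlier results of these data known. Alternatives changed the pseudocount, minimum, scaling, centring, columns and fold. The procedure was checked on simulated data. That check planted differences only in genes well above the minimum signal, with noise drawn separately for each pair. It therefore does not cover called genes near the minimum or noise shared between columns. Python 3.11.15, pandas 2.3.3, numpy 2.4.6, scipy 1.17.1 and statsmodels 0.14.6 were used.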

Additional observations from a re-analysis of the deposited data

How the results depend on the processing

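No paired analysis was possible because each condition has 1 library. The main counts were 0 higher and 2 lower genes at 2-fold and 11 and 16 at 1.5-fold in each pair. Without the minimum signal they were 50 and 58, and 254 and 152, mostly genes of low signal. Without centring on all genes, 11 were lower at 2-fold, and 0 higher and 104 lower at 1.5-fold. Pair 1 alone gave 1 and 7, and 24 and 137, and pair 2 alone 5 and 4, and 32 and 65. Crossing the columns gave 2 higher and 10 lower at 1.5-fold. A pseudocount 4 times larger left 7 higher genes, and quantile normalisation gave 20. A 3-fold threshold left 0 lower genes, and 2-fold in each pair left 0 higher and 1 lower. Zfp106 and Prom2 were past 2-fold under every scaling, pseudocount and column pairing listed, other than pair 1 alone, where only 1 of them was. The share of higher genes among 1.5-fold calls was 40.7%, and 57.1% under quantile normalisation, 51.7% with the trend with signal removed by lowess and 0% without centring. No called gene changed sign when the pseudocount, scaling, centring or columns were changed. The genes had been picked for a large difference of the same sign in both pairs, so this was largely fixed by the choice and is no separate support. Without replicate libraries or read counts, the error of each difference is unknown.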

Other observations

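These genes and families were chosen after their values were seen. Toll-like receptors, which sense microbial products, had 3 of 12 members at the minimum signal. Tlr2 had 7.39 and 7.94 with vitamin C against 6.70 and 4.29 with Gadd45a (0.36 and 1.07 in the pairs), and Tlr5 had 9.70 and 8.27 against 8.52 and 5.17 (0.41 and 0.86). In Flag these genes had 1.79 and 4.31 and 2.0 and 2.60. Tlr4, the other member at the minimum, was lower, with 7.999 and 6.41 against 11.6 and 9.40 (-0.31 and -0.34). Gm10801, named next to Gm10800, was higher, with 30.3 and 32.8 against 20.97 and 26.2 (0.64), and it had 30.9 and 25.6 in Flag.

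Over all tested genes, 40.9% were lower and 19.1% higher in both pairs, with a median of -0.05. Potassium channel genes (symbols starting with Kcn) at the minimum signal, 30 of 94, had a median difference of -0.18. Of these, 17 were lower and 4 higher in both pairs. Adhesion receptors (13 of 27 at the minimum) had -0.12, with 7 lower and 1 higher. Protocadherins (10 of 69) had -0.10, with 6 lower and 0 higher. Over all members, with or without the minimum, the medians of these families were -0.0, -0.01 and -0.04, so the lower values hold only for the members at the minimum. Among 277 Zfp zinc finger genes the median was -0.06, with 129 lower and 40 higher, shares of 46.6% and 14.4%, near those of all tested genes. Collagen genes (15 of 44 at the minimum) were at 0.01, histone genes (59 of 77) at 0.04 and ribosomal protein genes (70 of 76) at -0.06. Of 1135 olfactory receptor genes, 2 had the minimum signal.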
